A study of Mus musculus with 2 samples.

Results

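The nuclear genes for subunits of respiratory complexes II, III and IV and of ATP synthase, called complex V, were examined in control and senescent AML12 cells. Members were Sdha, Sdhb, Sdhc and Sdhd and the protein-coding genes whose symbols begin with Uqcr, Cox4i, Cox5, Cox6, Cox7, Cox8 or Atp5, where they had at least 10 reads over both libraries. This gave 41 genes among the 35275 of the count table, with 4 in complex II, 8 in complex III, 12 in complex IV and 17 in complex V. Measured values entered the choice only through the read minimum, which 41 of the 47 protein-coding matches passed. The other 6, Cox4i2, Cox6a2, Cox6b2, Cox7b2, Cox8b and Cox8c, had 0 to 2 reads. The member nearest above the minimum was Atp5s with 217 reads, and the gene nearest below it was Cox6a2 with 2.

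AML12 (Alpha Mouse Liver 12) is a non-transformed hepatocyte line that came from a CD-1 male mouse aged 3 months. Untreated cells were the controls, labelled young, and cells made prematurely senescent by repeated sublethal hydrogen peroxide were labelled old. Both groups were the same line with no other labelled difference, so they are a model in 1 cell line and not in aged animals. RNA of 3 replicates was pooled in each group before sequencing, which left 1 library of poly(A) RNA per condition. No spread between cultures could be measured and no test between conditions was possible.

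Complex II passes electrons from succinate to ubiquinone and is the only complex of the chain whose subunits are all encoded in the nucleus. Complex III passes electrons from ubiquinol to cytochrome c, and complex IV, cytochrome c oxidase, passes them from cytochrome c to oxygen. Both pump protons, whose return through the membrane part (Fo) of complex V turns a rotor that drives ATP synthesis in its F1 head. Complexes III, IV and V each combine nuclear subunits with a few that mitochondrial DNA encodes. Hepatocytes rely on this chain for the ATP that supports glucose production and urea synthesis.

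The control library held 28021941 reads on 17403 genes and the senescent library 25738075 reads on 17592 genes. Raw counts are therefore given first, and each ratio is the log2 of senescent over control after scaling by the trimmed mean of M values (TMM). The bracketed interval is the exact 95% interval from the 2 counts. It covers counting error only, because PCR copies were not marked and cultures were pooled. In bulk RNA, fewer cells with a transcript and less transcript per cell cannot be told apart. All 12 hepatocyte markers were detected in both libraries, among them Hnf4a with 8187 and 7705 reads. However, 4 fell and 2 rose past 0.5, beside 20.4% and 14.8% of all genes with at least 10 reads. Alb (albumin) went from 32076 to 2917 reads. Of the 4 cholangiocyte markers, Krt19 had 22885 and 19177 reads (-0.03), Krt7 fell from 3248 to 1026 (-1.43), Sox9 rose from 3602 to 4454 (0.54) and Epcam had 0 and 1. Macrophage markers summed to 77 and 156 reads, endothelial markers to 12 and 34, fibroblast markers to 27 and 8 and striated muscle markers to 5 and 4. The part of cell state or of other cells in the ratios below was not tested.

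None of the 41 members passed a log2 ratio of 1.5, the threshold of the study, in either direction, where 2.71% of the 14383 genes tested were higher and 5.6% lower. With a threshold of 0.5 and an interval without 0, 5 members fell, namely Cox7a1, Cox7b, Atp5s, Atp5e and Uqcrb, and 0 rose. Among all genes tested, 20.4% fell and 14.8% rose by this measure. With a prior count of 5 in place of 1 the count was 4, without Uqcrb. Intervals were also widened for a coefficient of variation set for each library, with no allowance for its pooling of 3 replicates. At 0.1 the count stayed 5, and at 0.4 it was 0. The widening for 0.1 is by itself smaller than 0.5, so that members with narrow intervals were bound to stay. The widening for 0.4 is by itself larger than any member ratio, so that 0 was fixed in advance. The median over members was -0.23 with an interquartile range of -0.36 to -0.02, against a median of -0.02 and a range of -0.48 to 0.35 over all genes tested. Of the 41 ratios, 32 (78.0%) were below 0, against 51.1% of all genes tested. The interval lay below 0 in 27 members, or 65.9%, against 34.6% of all genes tested. It lay above 0 in 5 members (12.2%), against 34.0% of all genes tested, and held 0 in 9. The 5 were Sdhb, Uqcrc1, Cox7a2l, Cox8a and Atp5d, of which Cox8a and Atp5d turned below 0 when libraries were scaled by total counts. Only Sdhb and Uqcrc1 kept an interval above 0 under that scaling. Members had more reads than most genes, with a median of 8202 against 1241, and more reads narrow the intervals. Among the 7804 genes with at least 1000 reads the median ratio was 0.08, and 42.8% of ratios were below 0. Intervals of these genes lay below 0 in 34.2% and above 0 in 48.5%. Past 0.5, 13.4% of them fell and 16.5% rose. Past 1.5, 133 of the 7804 fell and 68 rose, so few that 0 among 41 members does not stand out. The members thus showed many small negative ratios and no large ones, apart from Cox7a1. Their reads summed to 242907 in control and 187209 in senescent cells, or 0.867% and 0.727% of each library.

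**Figure D1:**
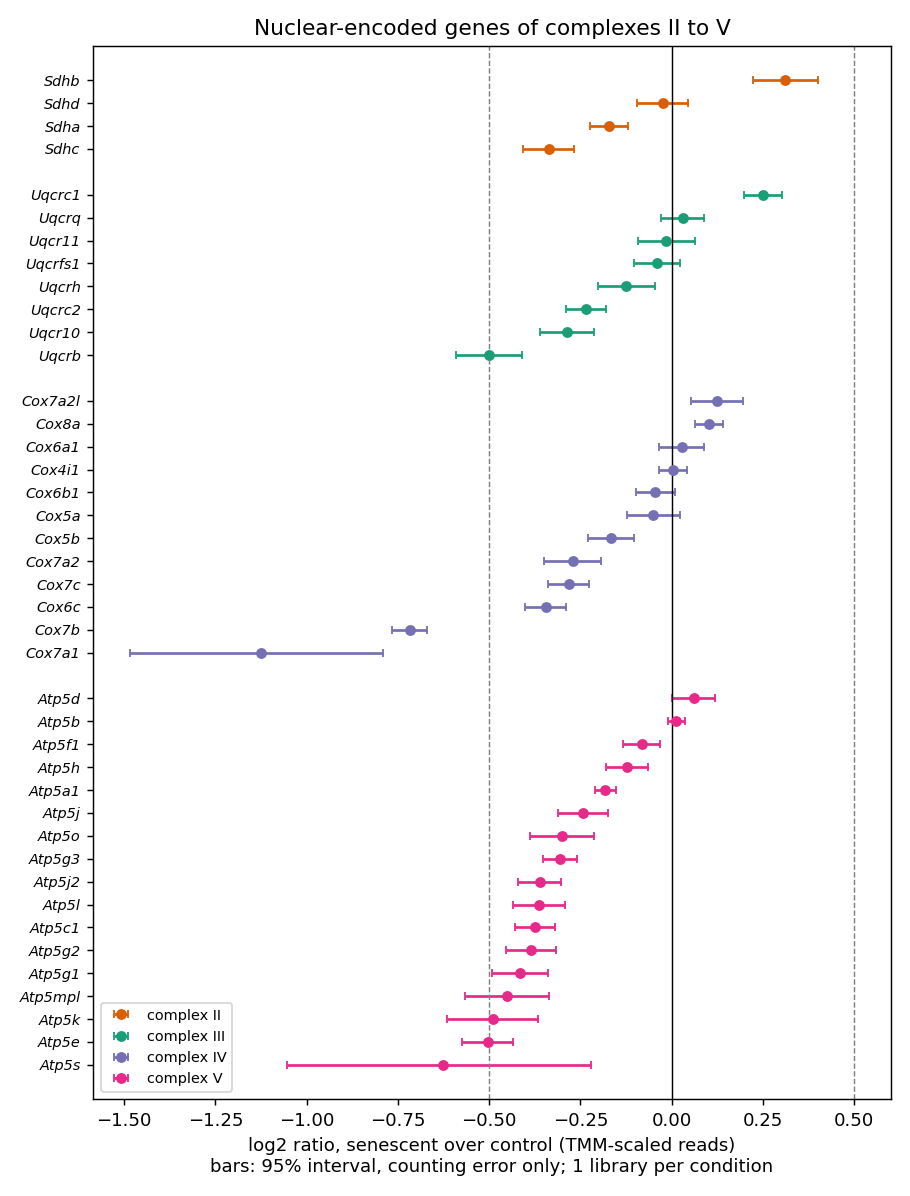
Log2 ratio of TMM-scaled reads, senescent over control, for each of the 41 members, grouped by complex and ordered by ratio. Points are ratios, bars are 95% intervals for counting error with 1 library per condition, the solid line marks 0 and the dashed lines mark the 0.5 threshold on either side. Most points of complex V lie left of 0, and Cox7a1 and Cox7b stand left of the other members of complex IV.

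The 4 complexes differed little in their medians, except that complex V was lowest. The median ratio was -0.10 in complex II, -0.08 in complex III, -0.11 in complex IV and -0.36 in complex V. A trend on GC content and on the merged length of all exons of a gene was also removed. Complex III then turned above 0 (median 0.0153, summed ratio 0.0201) and the medians of complexes IV and V were -0.0194 and -0.24. Summed reads, which weight abundant members more, gave ratios of -0.11 (-0.14 to -0.08), -0.07 (-0.09 to -0.05), -0.14 (-0.16 to -0.13) and -0.18 (-0.19 to -0.16) in the same order. In complex V the intervals of 15 of 17 members lay below 0, compared with 2 of 4 in complex II, 4 of 8 in complex III and 6 of 12 in complex IV. In complex V the sum stood closer to 0 than the median, with its most abundant gene, Atp5b, near 0, and without Atp5b the summed ratio was -0.25.

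Promoters are shown for the member with the highest ratio, Sdhb, for those with the lowest, Cox7a1 and Cox7b, and for a pair from the F1 head, its most abundant member Atp5b and its lowest ratio, Atp5e. The sequences come from the RefSeq promoter table on GRCm38.p6, 5′ to 3′ on the strand of the gene, and stop at the base before the annotated gene start. Capitals mark matches on either strand to CCGGAAG (ETS factors such as GABPA), GGGCGG (GC box) and TGACGT (core of the cAMP response element). The positions are chr4:140961021-140961202 (plus strand) for Sdhb, chr7:30183921-30184143 (plus) for Cox7a1 and chrX:106015450-106015699 (plus) for Cox7b. Those of Atp5b and Atp5e are chr10:128083057-128083272 (plus) and chr2:174464106-174464351 (minus).
Sdhb: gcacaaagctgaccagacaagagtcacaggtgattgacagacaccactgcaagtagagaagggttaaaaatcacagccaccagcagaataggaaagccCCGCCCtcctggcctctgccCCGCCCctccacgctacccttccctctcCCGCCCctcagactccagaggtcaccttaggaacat
Cox7a1: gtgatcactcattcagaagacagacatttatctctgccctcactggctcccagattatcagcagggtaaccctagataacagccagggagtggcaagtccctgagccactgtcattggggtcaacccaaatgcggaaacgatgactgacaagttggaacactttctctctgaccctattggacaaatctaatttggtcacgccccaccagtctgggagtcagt
Cox7b: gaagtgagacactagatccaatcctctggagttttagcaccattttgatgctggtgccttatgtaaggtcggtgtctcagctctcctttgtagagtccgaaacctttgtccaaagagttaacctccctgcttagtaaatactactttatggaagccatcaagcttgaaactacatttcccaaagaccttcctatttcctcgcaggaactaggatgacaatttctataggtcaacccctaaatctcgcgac
Atp5b: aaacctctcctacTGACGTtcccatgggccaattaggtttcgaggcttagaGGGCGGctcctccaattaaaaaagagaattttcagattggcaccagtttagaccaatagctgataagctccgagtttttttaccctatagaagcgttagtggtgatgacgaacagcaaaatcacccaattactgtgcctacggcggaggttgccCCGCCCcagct
Atp5e: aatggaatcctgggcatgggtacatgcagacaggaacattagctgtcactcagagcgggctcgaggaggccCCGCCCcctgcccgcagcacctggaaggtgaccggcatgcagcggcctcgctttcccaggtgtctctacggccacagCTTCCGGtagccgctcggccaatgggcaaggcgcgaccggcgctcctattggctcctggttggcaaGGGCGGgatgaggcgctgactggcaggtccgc

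Of the 41 members, 31 were matched in RefSeq and had a window of 250 bases before to 50 after the start. For Cox7a2l, Atp5d, Atp5g2 and Atp5j2 the RefSeq start lay so far inside the GENCODE gene that the whole window did too. Those windows are counted in the shares and medians below. The 6 short motifs of factors linked to these genes were searched on both strands, each by itself, so that matches could overlap. The ETS letters occurred in 11 of the 31 member windows (35.5%), in 9.12% of all 27025 windows and in 21.9% of the 6181 windows of other genes with at least 1000 reads. For AAGGTCA, the core site of estrogen-related receptors, the shares were 16.1% of member windows, 4.66% of all and 2.7% of those of well-covered genes. TGCGCA, the repeated core of the site of nuclear respiratory factor 1, was in 22.6%, 8.06% and 16.8%, in the same order. The GC box was in 32.3%, 35.9% and 70.2%, so that members were near all windows and below those of well-covered genes. GATGGCG (YY1) was in 6.45%, 3.66% and 7.98%, and TGACGT was in 12.9%, 7.64% and 13.5%. Of the members shown above, neither Cox7a1 nor Cox7b held any of these letters in its window. Median ratios with and without the letters were -0.05 (11 members) and -0.28 (20) for ETS, -0.04 (10) and -0.28 (21) for the GC box, and -0.01 (4) and -0.27 (27) for TGACGT. They were -0.165 (7) and -0.257 (24) for TGCGCA, -0.167 (2) and -0.173 (29) for GATGGCG, and -0.364 (5) and -0.145 (26) for AAGGTCA. These matches are descriptions of letters and were not tested.

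The subunits of complex II spread to both sides of 0. Sdhb, the iron-sulfur subunit of the catalytic head (chr4:140961203-140979193), had 1976 control and 2091 senescent reads, a ratio of 0.31 (0.22 to 0.40) and the highest of all members. Sdha, the flavoprotein that oxidises succinate, had 6992 and 5290 reads and a ratio of -0.17 (-0.22 to -0.12). The heme-binding membrane anchors are encoded by Sdhc and Sdhd. Sdhc had 4101 and 2768 reads with a ratio of -0.34 (-0.41 to -0.27), whereas Sdhd had 3708 and 3109 reads with a ratio of -0.02 (-0.09 to 0.04). Sdhb was the only one of the 4 with more raw reads in the smaller senescent library. Its ratio exceeded that of Sdha by 0.48 (0.38 to 0.59) and that of Sdhc by 0.65 (0.54 to 0.76), more than counting error, although the spread between cultures is unknown. Differences between genes do not depend on the scaling of the libraries.

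Of the assembly factors of complex II, 3 of 4 fell past 0.5, against 20.4% of all genes tested. Sdhaf1 and Sdhaf3, which help to mature the iron-sulfur subunit, had 1269 and 695 reads (-0.64) and 282 and 147 reads (-0.71). Sdhaf4, a chaperone of the flavoprotein, had 674 and 306 reads (-0.91). Sdhaf2, which attaches the flavin to Sdha, had 2922 and 2889 reads and a ratio of 0.21 (0.14 to 0.29). The factors that act on Sdhb thus lay below 0 while Sdhb itself lay above.

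In complex III the core proteins differed from each other. Uqcrc1, core protein 1 (chr9:108936633-108949623), had 5796 and 5876 reads and a ratio of 0.25 (0.20 to 0.30). Uqcrc2, core protein 2, had 6680 and 4842 reads and a ratio of -0.23 (-0.29 to -0.18). The difference of 0.48 (0.41 to 0.56) separates genes whose products pair in a fixed ratio on the matrix side of the complex. Uqcrfs1, the Rieske iron-sulfur protein that carries electrons to cytochrome c1, had 4482 and 3720 reads and a ratio of -0.04 (-0.10 to 0.02).

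Among the 5 small subunits of complex III only Uqcrb passed the 0.5 threshold, and only just. Uqcrb (chr13:66900617-66905378), which lies near a ubiquinone site, had 2574 and 1552 reads and a ratio of -0.50 (-0.59 to -0.41). Uqcr10 had 3667 and 2564 reads with a ratio of -0.29 (-0.36 to -0.21), and Uqcrh, the hinge protein that aids the contact with cytochrome c, had a ratio of -0.12. Uqcrq had 4889 and 4256 reads with a ratio of 0.03 (-0.03 to 0.09), and Uqcr11 had 2907 and 2454 reads with a ratio of -0.01 (-0.09 to 0.06). The intervals of the last 2 genes held 0.

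Beside these members, Cyc1, the cytochrome c1 subunit whose symbol the rule does not match, had 5030 and 3696 reads and a ratio of -0.21 (-0.28 to -0.15). Cycs, cytochrome c, had 5980 and 4346 reads and a ratio of -0.23 (-0.29 to -0.17). None of the 8 genes for assembly factors, cytochrome c1 and cytochrome c passed 0.5 in either direction, and their ratios ran from -0.48 for Uqcc2 to 0.46 for Ttc19. Within this list both directions were present.

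Complex IV held the largest change of any member. Cox7a1, the heart and skeletal muscle form of subunit 7A (chr7:30184144-30186078), fell from 252 to 98 reads, a ratio of -1.13 (-1.48 to -0.79). Its ubiquitous partner Cox7a2 had 3233 and 2284 reads and a ratio of -0.27 (-0.35 to -0.19). Cox7a2l, a relative of subunit 7A that joins complexes III and IV in supercomplexes, had 3313 and 3078 reads and a ratio of 0.12 (0.05 to 0.19). Cox7a1 differed from Cox7a2 by -0.85 (-1.20 to -0.51) and Cox7a2l from Cox7a2 by 0.40 (0.29 to 0.50).

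The makeup of the 7A family shifted with these ratios. Cox7a1 took 3.71% of the family's reads in control cells (3.27 to 4.18) and 1.80% in senescent cells (1.46 to 2.18). Cox7a2l went from 48.7% (47.5 to 49.9) to 56.4% (55.0 to 57.7), and Cox7a2 from 47.6% to 41.8%. Per kb of exon, Cox7a2 had the largest share in both libraries, at 55.8% and 51.6%, and Cox7a1 had 7.68% and 3.91%. Reads of the muscle form were thus a small part of the family in both conditions, and the striated muscle markers were near 0 in both libraries.

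The other tissue-restricted forms were at or near 0. Cox4i2, the lung form of subunit 4, had 0 reads in both libraries, which allows a share of up to 0.0244% of the subunit 4 reads in control and 0.0285% in senescent cells. Cox4i1, the ubiquitous form, had 12287 and 10510 reads and a ratio of 0.00 (-0.03 to 0.04). Cox6a2, the muscle form of subunit 6A, had 1 read in each library beside 4684 and 4070 of Cox6a1, whose ratio was 0.03 (-0.03 to 0.09). Cox6b2, the testis form of subunit 6B, had 0 and 1 reads beside 6325 and 5228 of Cox6b1, with a ratio of -0.05 (-0.10 to 0.01). The muscle form Cox8b and the testis form Cox8c had 0 reads in both libraries, and Cox8a had 11954 and 10939 with a ratio of 0.10 (0.06 to 0.14). The forms restricted to lung, muscle or testis, other than Cox7a1, thus had at most 1 read in either library.

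Cox7b, the somatic form of subunit 7B (chrX:106015700-106022450), fell from 10603 to 5498 reads, with a ratio of -0.72 (-0.77 to -0.67). Its testis form Cox7b2 had 0 reads in both libraries. Cox7b was the only abundant member of complex IV to pass 0.5, and it differed from Cox7c by -0.44 (-0.51 to -0.36). Of the 4 subunits with a single form, Cox6c had 6454 and 4334 reads with a ratio of -0.34 (-0.40 to -0.29). The ratios of Cox7c, the zinc-binding Cox5b and Cox5a were -0.28, -0.17 and -0.05, so that all 4 lay below 0 with a median of -0.22. The 8 members of families with several forms had a median of -0.02. Ndufa4, a subunit of complex IV in spite of its complex I name, had 6936 and 5265 reads and a ratio of -0.17 (-0.22 to -0.12).

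**Figure D2:**
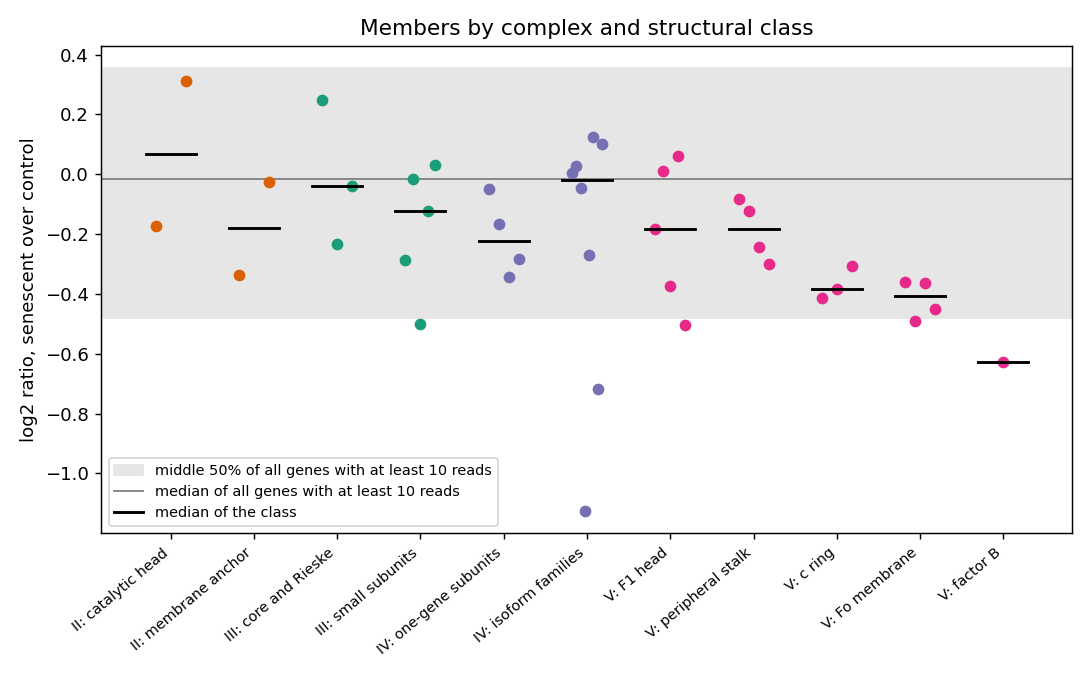
Log2 ratio of each member, senescent over control, by complex and structural class; points are members, black bars are class medians, the grey line is the median of all genes with at least 10 reads and the grey band their middle 50%. Points of the c ring and of the Fo membrane part of complex V lie close together below 0, while the F1 head and the isoform families of complex IV are spread.

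Assembly factors of complex IV went in both directions, with 2 of 25 tested higher and 6 lower past 0.5. Among all genes tested 14.8% were higher and 20.4% lower, so the lower count was near that share. Lrpprc, which stabilises mitochondrial mRNAs, rose from 2587 to 3730 reads (0.76), and Cox10, which makes a heme A precursor, rose from 486 to 683 (0.72). Coa5, with 4102 and 4895 reads, and Sco1, a copper chaperone with 522 and 626 reads, had ratios of 0.48 and 0.49. The lower genes with at least 100 reads were led by Pet100 (694 to 325 reads, -0.86), Cox20 (1023 to 489, -0.83) and Cmc2 (215 to 104, -0.81). The list's median was -0.04.

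In the F1 head of complex V the ratios of the 5 subunits ran from -0.50 to 0.06. Atp5b, the catalytic beta subunit (chr10:128083273-128090391), had 31331 and 26949 reads and a ratio of 0.01 (-0.01 to 0.04). Atp5a1, the alpha subunit that alternates with beta in the hexamer, had 21700 and 16315 reads and a ratio of -0.18 (-0.21 to -0.15). The central stalk that turns inside the hexamer is made of gamma, delta and epsilon. Atp5d, delta, had 4890 and 4347 reads and a ratio of 0.06 (0.00 to 0.12), Atp5c1, gamma, had 6919 and 4550 reads and a ratio of -0.38 (-0.43 to -0.32), and Atp5e, epsilon (chr2:174461072-174464105), fell from 4440 to 2669 reads with a ratio of -0.50 (-0.57 to -0.44). Atp5e differed from Atp5b by -0.52 (-0.59 to -0.44), Atp5c1 by -0.39 (-0.45 to -0.33) and Atp5d by 0.05 (-0.02 to 0.11). The subunits of the stalk thus did not share a ratio.

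The c ring, the rotor in the membrane, is made from 3 genes whose mature proteins are the same and whose import sequences differ. Atp5g1, Atp5g2 and Atp5g3 had ratios of -0.42, -0.38 and -0.31, and their shares of the trio's reads were 20.6%, 24.8% and 54.6% in control and 19.7%, 24.1% and 56.2% in senescent cells. The difference of Atp5g1 from Atp5g2, -0.03 (-0.13 to 0.07), had an interval that held 0. Atp5g1 differed from Atp5g3 by -0.11 (-0.20 to -0.02). The 3 genes thus had close ratios below 0. Because they share coding sequence, reads may have been placed on the wrong gene of the trio, and the ratio of their sum was -0.35 (-0.38 to -0.31).

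The remaining members of complex V were all below 0. In the peripheral stalk, which holds the head still, 4 genes were members. Atp5f1 (subunit b, 7021 and 5659 reads) had a ratio of -0.08 (-0.13 to -0.03). The others had ratios of -0.12 for Atp5h (d), -0.24 for Atp5j (F6) and -0.30 for Atp5o (OSCP, which caps the head). The 4 Fo membrane genes were lower and close together. Ratios were -0.36 for Atp5j2 (f), -0.36 for Atp5l (g) and -0.45 for Atp5mpl (a small proteolipid). Atp5k (e, 1394 and 846 reads) had a ratio of -0.49 (-0.62 to -0.37). Subunits e and g take part in dimers of the complex that bend the cristae. Atp5s, coupling factor B (chr12:69724950-69744660), which the Atp5 symbol brings in although it is not a standard subunit, fell from 140 to 77 reads with a ratio of -0.63 (-1.05 to -0.22). Class medians ran from -0.18 in the F1 head and peripheral stalk to -0.38 in the c ring and -0.41 in the Fo membrane part.

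All 6 genes for assembly and inhibition of complex V had ratios below 0, against 51.1% of all genes tested. Fmc1, which acts in F1 assembly, was the only one past 0.5 and fell from 782 to 314 reads (-1.08, -1.28 to -0.90). Atpif1, the inhibitor that blocks ATP hydrolysis when the proton gradient is lost, had 2912 and 2072 reads and a ratio of -0.26 (-0.34 to -0.18). Usmg5, a small subunit of complex V that the rule does not match, had 7744 and 5417 reads and a ratio of -0.29 (-0.34 to -0.24). As a contrast, the 17 tested genes of the vacuolar ATPase, a related rotary pump outside mitochondria, had a median of 0.17. Of these, 5 were below 0, and the median of all genes with at least 1000 reads was 0.08.

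Levels were compared between genes as RPKM, the reads per kb of merged exon scaled to the TMM library size. In control cells the highest was Cox8a at 664, followed by Cox6b1 at 307, Cox7b at 300.3, Cox4i1 at 273, Atp5b at 254 and Atp5a1 at 238, and Uqcr10 at 216 and Uqcr11 at 156 led complex III. The lowest were Cox7a1 at 16.2 and Atp5s at 2.36. Complex medians were 50.8 for complex II, 96.4 for III, 154 for IV and 77.8 for V, and in senescent cells 44.7, 85.8, 127 and 55.6. The order of members was nearly the same in both libraries, with a Spearman rho of 0.978 across the 41 genes, which are not independent replicates and share libraries and lengths. Merged exons inflate the length of some genes, such as Atp5l with 6443 bases against 544 in its principal transcript, and levels by principal transcript, a choice added after the data were seen, correlated with these at a rho of 0.751. By principal transcript the control medians were 71.2 for complex II, 143 for III, 291 for IV and 201 for V, so that complex V stood above complex III, and Atp5b came second after Cox8a. The order of levels between complexes thus depended on the length used.

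**Figure D3:**
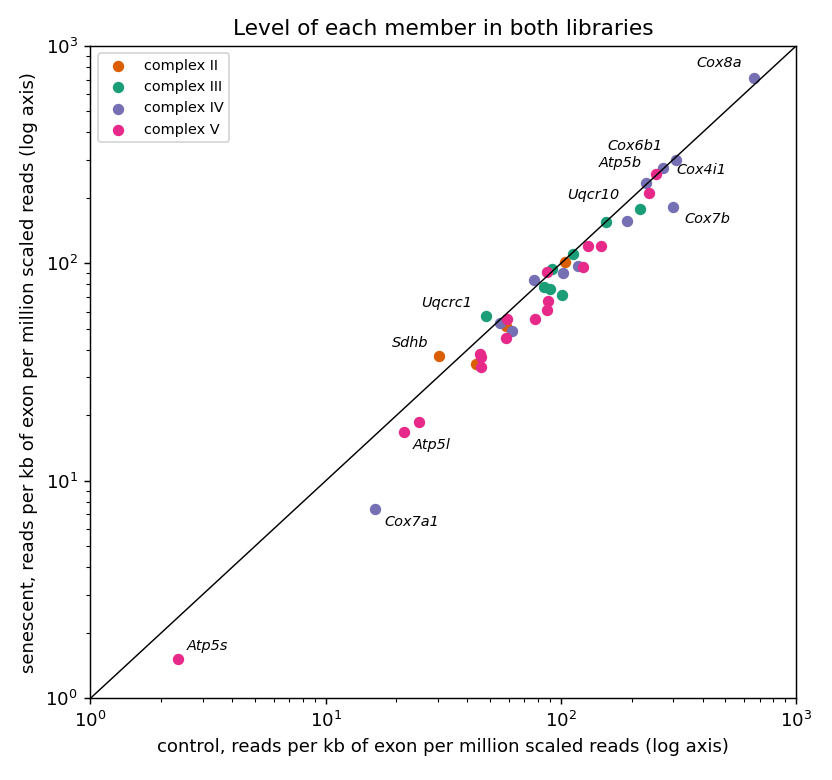
Level of each member in control (x axis) and senescent (y axis) cells, in RPKM (reads per kb of merged exon, scaled to library size) on log axes; each point is 1 gene, colours are complexes and the line marks equal levels. Most points lie on or just under the line, Sdhb and Uqcrc1 lie above it, and Cox7b and Cox7a1 lie below.

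Most members have short transcripts, with a median of 809 bases in the principal transcript against 2754.5 among all genes tested, and ratios varied with length in these libraries. Among genes with at least 1000 reads, the median ratio was -0.12 for the 447 genes with principal transcripts under 1000 bases and 0.16 for the 2732 with 4000 or more. The 23 members under 1000 bases had a median of -0.28. The 12 members from 1000 to 2000 bases had one of -0.01, beside -0.02 for all 1502 genes of that length. The 4 members of 2000 bases or more, Sdhc, Atp5a1, Sdha and Atp5g1, all had ratios below 0. A trend on principal transcript length was not taken off. With one on GC content and merged exon length taken off, 27 of the 41 ratios were below 0 and only Cox7a1 and Cox7b stayed past 0.5. Intervals then lay below 0 in 24 members and above 0 in 11. Cox5a, Cox6b1, Sdhd, Uqcr11 and Uqcrfs1 changed sign. The part of transcript length in the ratios was not tested further.

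**Figure D4:**
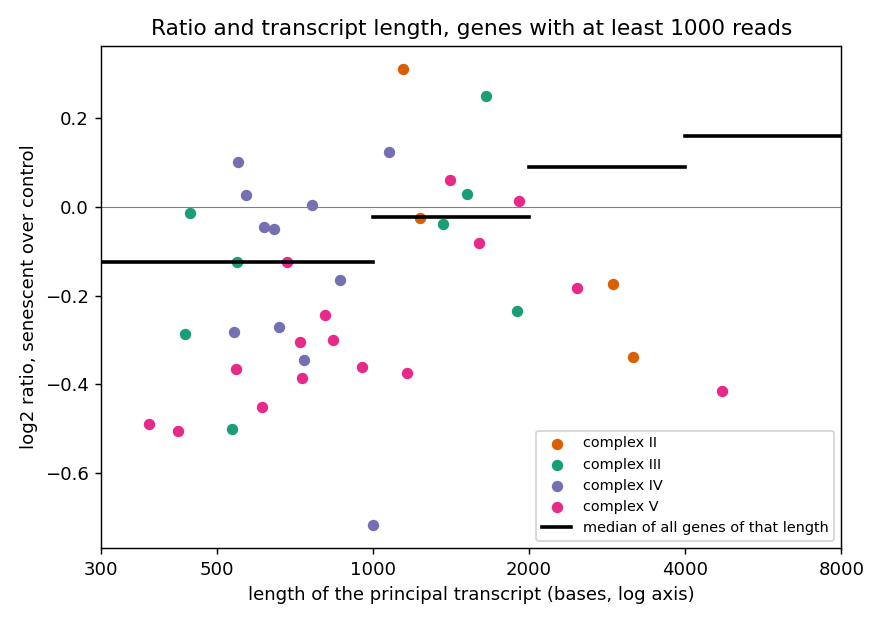
Log2 ratio, senescent over control, against the length of the principal transcript in bases (log axis) for the 39 members with at least 1000 reads; points are members by complex, and black bars are medians of all genes with at least 1000 reads in 4 length classes. Bars rise from -0.12 under 1000 bases to 0.16 from 4000 bases, and most members of complex V under 1000 bases lie below their bar.

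The mitochondrial genes for partner subunits had uneven depth. The mt-Co1 gene, the catalytic core of complex IV, had 371189 and 313280 reads and a ratio of -0.02, and mt-Cytb of complex III had 133659 and 96179 and a ratio of -0.25. The genes mt-Co2 (1089 and 894 reads) and mt-Co3 (1218 and 672) had ratios of -0.05 and -0.63, and mt-Atp6 of complex V (604 and 396) had one of -0.38. For mt-Atp8 there were 0 and 1 reads. Of the mitochondrial subunits tested only mt-Co3 passed 0.5. Depth differed so widely within 1 genome that levels of these genes are not compared with those of the members.

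Of the nuclear genes named for complex I, the other entry of electrons to the chain, all 36 tested (Ndufa4 included) had ratios below 0. Among all genes tested the share below 0 was 51.1%. Past 0.5, 12 of the 36 fell, against 20.4% of all genes tested. Their median was -0.31, beside -0.23 over the members. Among the regulators of respiratory genes, 3 of 17 rose and 3 fell past 0.5, near the 14.8% and 20.4% of all genes tested. Only 4 of the 17 ratios were below 0, and their median was 0.30. The median was -0.02 over all genes tested and 0.08 over those with at least 1000 reads. Of the 3 that fell, 1 had only 21 and 2 reads. Myc rose from 2239 to 4382 reads (1.20), Pprc1, a coactivator of the PGC-1 family, from 2821 to 4861 (1.01), and Nrf1, nuclear respiratory factor 1, from 994 to 1286 (0.60). Ppargc1a, the coactivator PGC-1α, fell from 105 to 16 reads (-2.42, -3.34 to -1.72) and Tfb1m, a mitochondrial rRNA methyltransferase, from 240 to 111 (-0.88). Gabpa, which binds the ETS letters, had 2172 and 2374 reads (0.36), and Esrra, an estrogen-related receptor, had 5242 and 5163 (0.21). Any link between these levels and those of the subunit genes was not tested.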

How the data were processed

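The authors deposited, for each Ensembl gene, the raw count of reads in the control and the senescent library. The submitters' processing notes name mm10, CASAVA, STAR, DESeq2 and edgeR without versions. The counting tool, annotation release and use of strand are not given in the sources used here. Columns were matched to samples by the initials of the titles, young and old. Symbols came from GENCODE M21 for 34490 genes (97.8%).

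Counts were scaled by TMM in edgeR 4.0.16 (R 4.3.3), and DESeq2 1.42.0 served for alternative size factors. Ratios with a prior count of 1 and Clopper-Pearson intervals came from scipy 1.17.1, pandas 2.3.3 and numpy 2.4.6 under Python 3.11.15. Trends used statsmodels 0.14.6 (lowess fraction 0.3), and figures used matplotlib 3.10.9. An interval of a difference between genes combines their counting errors. A gene counted as higher or lower with at least 10 reads, a ratio past 1.5 or 0.5 and an interval without 0. The method was tested on simulated data. A count of 0 allows up to 3 reads. The alternatives were other scalings, read minima, prior counts and thresholds, and intervals widened for a set variation of each library. They also included removal of a trend on GC content and merged exon length, and leaving out the most abundant member of a complex. No p-value was computed.

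Members and lists were chosen with earlier results of these data known. Full values are given for complex II and for the 3 highest, 3 lowest and 2 most abundant members per kb of each other complex. They are also given for the ubiquitous partners of tissue-restricted forms and for members past 0.5. From other lists, fixed genes and up to 3 genes furthest from 0 in either direction with at least 100 reads are named. Coa5, Usmg5, Gabpa, Esrra, Hnf4a, Alb, Krt19, Krt7, Sox9 and Epcam fall outside this rule and were named after their values were seen. Pseudogene rows matching the symbols (7) held 8 reads in all, so reads shared with near-identical copies may have been assigned to the members or dropped. The paper's supplementary tables were not used.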

Additional observations from a re-analysis of the deposited data

How the results depend on the processing

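The 0 members past 1.5, the signs of the complex medians and the interval of Sdhb and Uqcrc1 above 0 held under TMM, total-count, DESeq2 and upper-quartile scaling. Total-count scaling lowered the median of all genes by 0.11 (shift -0.11), gave medians of -0.34 over members and -0.21, -0.19, -0.21 and -0.47 for complexes II to V, 8 members lower past 0.5, and summed ratios of -0.22, -0.18, -0.25 and -0.28. Upper-quartile scaling gave summed ratios of -0.15, -0.11, -0.18 and -0.22. Against TMM, 6 members changed sign under total counts (Atp5b, Atp5d, Cox4i1, Cox6a1, Cox8a, Uqcrq), 4 under upper quartiles (Atp5b, Cox4i1, Cox6a1, Uqcrq) and 1 under DESeq2 (Cox4i1). With the GC and length trend removed, complex III reversed (median 0.0153, sum 0.0201), medians were -0.14 over members, -0.0194 for complex IV and -0.24 for complex V, sums were -0.0474, -0.0475 and -0.12 for complexes II, IV and V, and 2 members stayed lower past 0.5. With at least 1 read the complex IV median was -0.0477. Without the most abundant member, sums were -0.0667, -0.15, -0.19 and -0.25. A threshold of 1 counted 1 member lower, and one of 0.25 counted 19 lower and 1 higher. With intervals widened for a coefficient of variation of 0.4 in each library, 0 members were lower past 0.5, a count fixed by the size of the widening. No paired analysis was possible because each condition had 1 library, and no library could be left out. Depth limited Cox7a1 and Atp5s most, since their intervals were the widest among members. The causes of these differences were not tested beyond the construction of each alternative.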
